A study of Homo sapiens with 4 samples.

Results

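The result described here is how the response to TGF-beta differed between SCP2 cells labelled as overexpressing DLC1 and SCP2 cells carrying a vector. For each transcript it is the log2 change under TGF-beta within the arrays labelled DLC1, minus the log2 change under TGF-beta within the vector arrays, called the difference of responses below. A negative value means that the change with TGF-beta was lower, or further down, in the arrays labelled DLC1. A positive value means the opposite. Affymetrix probe sets, the groups of short probes that read a transcript, were selected on their highest value, which had to reach 1 on at least 1 of the 4 arrays. Of 54675 probe sets, 17479 had exactly 1 gene symbol in the platform annotation and reached it. They stood for 10257 of 19775 genes, and a gene was read from its member set with the highest mean.

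SCP2 is a bone-colonising subline of the human breast cancer line MDA-MB-231. The 4 groups were DLC1-overexpressing cells with TGF-beta, the same cells without it, vector control cells with TGF-beta and vector control cells without it. Each group was measured on 1 array, so there is no spread between samples, no test and no p-value, and every value below describes these 4 arrays. The dose and duration of TGF-beta, the promoter of the construct and whether the cells were 1 clone or a pool are unknown here, since the labels and protocols do not give them.

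TGF-beta binds a pair of receptor kinases that phosphorylate SMAD2 and SMAD3, which enter the nucleus with SMAD4 and act on genes for matrix proteins, cell adhesion and their own feedback inhibitors. In breast cancer that has spread to bone, TGF-beta released from resorbed matrix is known to act on the tumour cells. DLC1 is a GTPase-activating protein that acts on actin fibres and adhesion, and it is known as a tumour suppressor.

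The targeted transcript was read first. DLC1 set 210762_s_at read 3.64 with and 3.38 without TGF-beta in the arrays labelled DLC1, against 2.51 with and 1.77 without it in the vector arrays. The other member set, 224822_at, read 1.69 with and 1.44 without TGF-beta in the arrays labelled DLC1, against 2.41 with and 1.79 without it in the vector arrays. The first set was higher in both arrays labelled DLC1 and the second was lower in both, so the transcript does not settle the labels. The difference of responses was -0.40 in the first set and -0.20 in the second. All 7 markers listed for a mesenchymal basal-like line reached 1 on these arrays. They were vimentin (VIM), CD44, CAV1, AXL, MSN and the keratin genes KRT18 and KRT8, which are also among the epithelial genes followed below. Of 7 luminal breast markers, 3 did: KRT19, EPCAM and GATA3 reached 16.6, 7.45 and 4.59. The luminal markers ESR1, PGR, FOXA1 and CDH1 reached at most 0.46, 0.11, 0.12 and 0.31. None of 5 endothelial and none of 5 stromal markers reached 1, and CD14 was the 1 of 5 leukocyte markers that did.

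The spread of the difference of responses was narrow beside the effects it was formed from. Over the 10257 genes its median was 0.02 and its SD 0.22, and 10038 genes (97.9%) lay within 1.5-fold. On a common scale the average difference with TGF-beta had an SD of 0.29 over genes and the average difference between arrays labelled DLC1 and vector arrays an SD of 0.43. The difference of responses, halved to match, had an SD of 0.11. On that scale 373 genes lay at or above 0.5 and 219 at or below -0.5 for the TGF-beta average, 809 and 1123 for the DLC1 average, and 16 and 19 for the difference of responses.

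At 2-fold or more, 16 genes had a positive difference of responses, which is 0.156% of all genes, and 19 had a negative one, which is 0.185%. These 35 are referred to as the called genes, and they were picked by that value, so nothing is read from their number. At 1.5-fold the counts were 129 genes (1.26%) above and 90 (0.877%) below. For each response on its own, 97 genes (0.946%) were at least 2-fold higher under TGF-beta in the arrays labelled DLC1 and 12 (0.117%) at least 2-fold lower. In the vector arrays 148 (1.44%) were higher and 72 (0.702%) lower. No gene passed 1.5-fold in opposite directions in the 2 backgrounds.

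**Figure D1:**
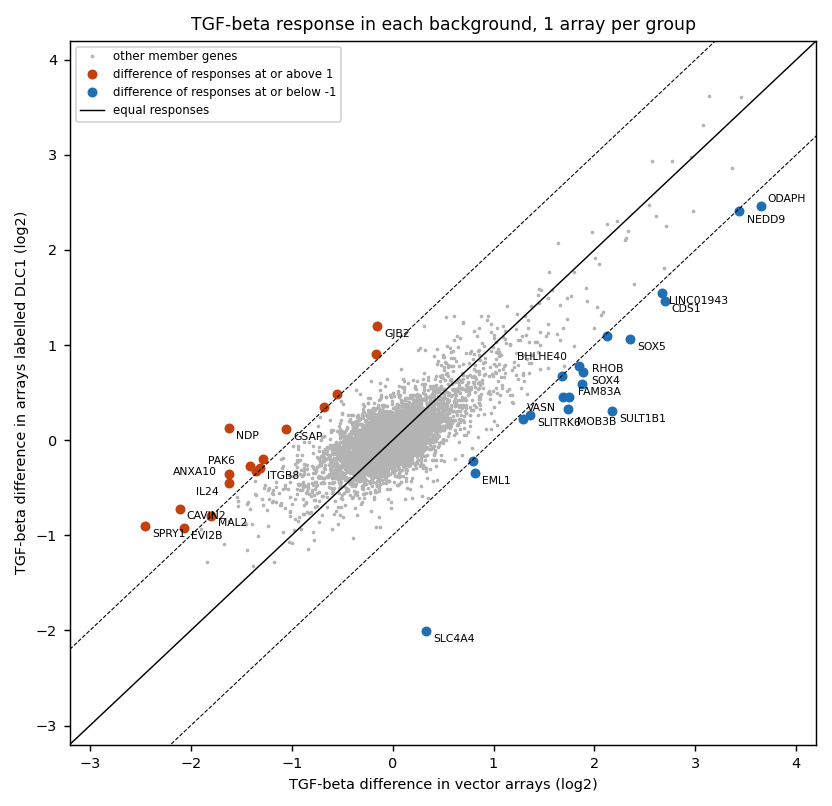
Each point is 1 of 10257 genes: its log2 difference under TGF-beta in the arrays labelled DLC1 (vertical axis) is set against that in the vector arrays (horizontal axis), with 1 array per group. The solid line marks equal responses and the dashed lines a difference of responses of 1 and -1. The 19 genes below the lower dashed line include SLC4A4, ODAPH and NEDD9, and the 16 above the upper one include NDP, SPRY1 and GJB2.

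The upstream sequences shown are those of NEDD9, SLITRK6 and GSAP, which are 3 of the 4 genes with several member sets and every one past 2-fold, and of SOX4, which had the most member sets of the called genes. That of the other gene, FAM83A, is not shown here. Each is the 250 bases before the RefSeq gene start, 5′ to 3′ on the gene's strand, in GRCh38.p14. NEDD9 lies at chr6:11382349-11382598 on the minus strand, SLITRK6 at chr13:85799420-85799669 on the minus strand, SOX4 at chr6:21593501-21593750 on the plus strand and GSAP at chr7:77416350-77416599 on the minus strand. Capitals mark matches on either strand to CAGAC, the core of the SMAD box, TGANTCA, the AP-1 site, GGAATG, the TEAD site, or CAGGTG, the E-box of the SNAI and ZEB repressors.
NEDD9: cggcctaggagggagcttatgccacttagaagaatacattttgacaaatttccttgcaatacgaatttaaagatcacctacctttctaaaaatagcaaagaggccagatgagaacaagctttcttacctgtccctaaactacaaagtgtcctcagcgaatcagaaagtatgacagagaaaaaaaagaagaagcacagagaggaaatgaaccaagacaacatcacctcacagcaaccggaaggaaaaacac
SLITRK6: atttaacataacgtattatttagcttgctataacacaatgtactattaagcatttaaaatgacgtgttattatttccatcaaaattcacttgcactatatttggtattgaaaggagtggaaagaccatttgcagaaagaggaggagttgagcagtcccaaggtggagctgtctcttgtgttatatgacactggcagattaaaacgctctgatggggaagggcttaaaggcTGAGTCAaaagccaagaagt
SOX4: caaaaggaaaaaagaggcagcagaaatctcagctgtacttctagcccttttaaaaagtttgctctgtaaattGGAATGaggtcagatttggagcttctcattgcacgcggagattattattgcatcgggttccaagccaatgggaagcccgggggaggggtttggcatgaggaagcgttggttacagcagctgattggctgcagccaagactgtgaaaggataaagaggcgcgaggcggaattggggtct
GSAP: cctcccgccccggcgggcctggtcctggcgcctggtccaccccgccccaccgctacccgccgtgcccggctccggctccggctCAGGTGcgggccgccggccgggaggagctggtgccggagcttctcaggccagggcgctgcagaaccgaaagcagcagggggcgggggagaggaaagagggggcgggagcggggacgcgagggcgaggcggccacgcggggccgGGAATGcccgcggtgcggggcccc
SLITRK6 holds 1 AP-1 match, SOX4 1 TEAD match and GSAP 1 TEAD match and 1 E-box, with no overlaps. The NEDD9 window holds none of these letters, which says nothing of the factors.

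Over the called genes the same windows were counted. Of the 19 negative genes 17 had a window, and CAGAC was in 4 of them (23.5%), TGANTCA in 3 (17.6%), GGAATG in 3 (17.6%) and CAGGTG in 4 (23.5%). Of the 16 positive genes 12 had one, with 3 (25%), 1 (8.33%), 2 (16.7%) and 1 (8.33%). Among all 27305 windows the shares were 37.8%, 6.6%, 11.9% and 17.5%. A match is a description of the letters and not a bound site.

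The negative differences came mostly from genes that were higher with TGF-beta in vector cells and less so, or not, in cells labelled DLC1. Of the 19 genes, 10 passed 2-fold upward in the vector arrays alone, 6 passed it upward in both backgrounds, 2 passed it in neither, and SLC4A4 passed it downward in the arrays labelled DLC1 alone. The group holds transcription factors (SOX4, SOX5, BHLHE40), a focal adhesion gene (NEDD9), a small GTPase gene (RHOB) and a membrane protein that binds TGF-beta (VASN).

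SOX4 encodes a transcription factor known as a TGF-beta target in breast and other carcinoma cells. It read 27.6 with and 18.3 without TGF-beta in the arrays labelled DLC1, against 25.2 with and 6.84 without it in the vector arrays. The vector array without TGF-beta stood apart as low, and the other 3 lay within 18.3 to 27.6. The log2 difference with TGF-beta was 0.59 in the arrays labelled DLC1 and 1.88 in the vector arrays, a difference of responses of -1.29. BHLHE40, a basic helix-loop-helix repressor tied to the circadian clock, was also lowest on the vector array without TGF-beta. It read 19.8 with and 11.5 without TGF-beta in the arrays labelled DLC1, against 21.0 with and 5.85 without it in the vector arrays. Its difference of responses was -1.06. SOX5, a relative of SOX4, differed in another way. It read 0.67 with and 0.32 without TGF-beta in the arrays labelled DLC1, against 3.11 with and 0.61 without it in the vector arrays, so that the vector array with TGF-beta was the high one. Its difference of responses was -1.28, and both responses passed 2-fold upward.

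NEDD9, 1 of the 4 genes whose upstream window is printed, encodes a scaffold protein of focal adhesions. It read 5.01 with and 0.94 without TGF-beta in the arrays labelled DLC1, against 5.09 with and 0.47 without it in the vector arrays. In this set the 2 backgrounds were level with TGF-beta. Without it the array labelled DLC1 was the higher, and the difference of responses was -1.02 although both responses were large, at 2.41 and 3.44. RHOB, a small GTPase gene, read 1.45 with and 0.88 without TGF-beta in the arrays labelled DLC1, against 2.40 with and 0.65 without it in the vector arrays. The vector array with TGF-beta was the highest, and the difference of responses was -1.16. RASGRP3, an exchange factor for Ras and Rap, read 0.77 with and 0.66 without TGF-beta in the arrays labelled DLC1, against 1.64 with and 0.67 without it in the vector arrays, a difference of -1.07.

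VASN, whose product binds TGF-beta at the cell surface, read 1.73 with and 1.26 without TGF-beta in the arrays labelled DLC1, against 2.93 with and 0.91 without it in the vector arrays. Again the vector pair was the farther apart, and the difference of responses was -1.23. FAM83A, a scaffold protein that binds casein kinase 1, read 1.85 with and 1.35 without TGF-beta in the arrays labelled DLC1, against 6.03 with and 1.8 without it in the vector arrays. A single array, vector with TGF-beta, lay above the other 3, which ran from 1.35 to 1.85. The difference of responses was -1.29. SLITRK6, a transmembrane protein of neurons and inner ear, read 7.38 with and 6.14 without TGF-beta in the arrays labelled DLC1, against 3.36 with and 1.31 without it in the vector arrays. Both arrays labelled DLC1 were above both vector arrays, and the difference of responses was -1.09.

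Of the remaining negative genes, ODAPH, an enamel protein gene, had the highest vector response of the group. It read 1.60 with and 0.29 without TGF-beta in the arrays labelled DLC1, against 6.39 with and 0.51 without it in the vector arrays, responses of 2.46 and 3.65 with a difference of -1.18. CDS1, an enzyme of phospholipid synthesis, read 2.40 with and 0.87 without TGF-beta in the arrays labelled DLC1, against 3.24 with and 0.50 without it in the vector arrays, a difference of -1.23. The long noncoding RNA LINC01943 gave -1.13. The endothelial proteoglycan gene ESM1 and the endocytic receptor gene CUBN gave -1.02 and -1.0. The sulfotransferase gene SULT1B1, at -1.87, and MOB3B, of the MOB kinase activator family, at -1.40, were dim: each read at most 0.34 on 3 arrays, and only the vector array with TGF-beta reached 1, at 1.04 and 1.1. The MOB3B sets under the limit of 1 gave -0.51, -1.17 and -0.11, and the first, which reached 0.97, was brighter on average than the member set.

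SLC4A4, a sodium bicarbonate cotransporter, had the lowest difference of responses of all, -2.34, a 5.06-fold ratio between the 2 responses. It read 0.36 with and 1.45 without TGF-beta in the arrays labelled DLC1, against 0.44 with and 0.35 without it in the vector arrays. The array labelled DLC1 without TGF-beta alone exceeded 1, and the other 3 ran from 0.35 to 0.44. The SLC4A4 sets under the limit of 1, which read 0.08 to 0.24, gave -0.22, -0.17, 0.34 and -0.80. EML1, which binds microtubules, and CST1, a secreted cystatin, were the 2 genes that passed 2-fold in neither response. EML1 read 0.56 with and 0.71 without TGF-beta in the arrays labelled DLC1, against 1.16 with and 0.66 without it in the vector arrays. CST1 read 4.0 with and 4.67 without TGF-beta in the arrays labelled DLC1, against 2.17 with and 1.25 without it in the vector arrays. In both genes TGF-beta went with lower values in the arrays labelled DLC1 and higher ones in the vector arrays.

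The positive differences came mostly from genes that were lower with TGF-beta in vector cells and less so in cells labelled DLC1. Of the 16 genes, 12 passed 2-fold downward in the vector arrays alone, 3 passed it in neither background, and GJB2 passed it upward in the arrays labelled DLC1 alone. None passed it downward in the arrays labelled DLC1, which the pick on a positive difference makes unlikely. They include an inhibitor of growth factor signalling (SPRY1), a ligand of Wnt receptors (NDP), an integrin chain (ITGB8) and a caveolae protein (CAVIN2).

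SPRY1 encodes a Sprouty protein, an inhibitor of receptor tyrosine kinase signalling. It read 2.28 with and 4.26 without TGF-beta in the arrays labelled DLC1, against 0.66 with and 3.61 without it in the vector arrays. The vector array with TGF-beta was the low one. The log2 differences with TGF-beta were -0.90 and -2.45, and the difference of responses was 1.55. MAL2, a protein of transcytosis in epithelial cells, had the same low array. It read 17.1 with and 29.6 without TGF-beta in the arrays labelled DLC1, against 5.79 with and 20.2 without it in the vector arrays, a difference of 1.01. EVI2B, a membrane protein gene within an intron of NF1, read 2.90 with and 5.50 without TGF-beta in the arrays labelled DLC1, against 1.89 with and 7.94 without it in the vector arrays. Its difference was 1.15.

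In most of the other positive genes the vector array without TGF-beta was the high one. ITGB8 encodes the integrin beta-8 chain, whose pairing with alpha-V binds and activates latent TGF-beta. It read 2.0 with and 2.45 without TGF-beta in the arrays labelled DLC1, against 3.03 with and 7.53 without it in the vector arrays, a difference of responses of 1.02. CAVIN2 read 0.65 with and 1.07 without TGF-beta in the arrays labelled DLC1, against 0.96 with and 4.15 without it in the vector arrays, a difference of 1.39. Both genes were lower without TGF-beta in the array labelled DLC1 than in the vector array, by 1.62 and 1.96 on the log2 scale. ANXA10, an annexin, read 1.09 with and 1.39 without TGF-beta in the arrays labelled DLC1, against 0.92 with and 2.83 without it in the vector arrays, a difference of 1.27. GSAP, the gamma-secretase activating protein, read 1.96 with and 1.81 without TGF-beta in the arrays labelled DLC1, against 2.86 with and 5.94 without it in the vector arrays, a difference of 1.17.

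NDP, which encodes norrin, a ligand of a Wnt receptor, had the highest difference of responses, 1.75. It read 0.24 with and 0.22 without TGF-beta in the arrays labelled DLC1, against 0.37 with and 1.14 without it in the vector arrays, so a single array reached 1. The cytokine gene IL24, the kinase gene PAK6, CRISPLD2 and ENPP2, which encodes autotaxin, gave 1.18, 1.15, 1.09 and 1.03, and in each the vector array without TGF-beta was the high one, at 1.30 to 1.83. GJB2, the connexin 26 gene, read 1.56 with and 0.68 without TGF-beta in the arrays labelled DLC1, against 0.82 with and 0.91 without it in the vector arrays. The array labelled DLC1 with TGF-beta was the high one, and the difference was 1.35. SH3TC2, the centriole protein gene CNTRL and LINC01812 passed 2-fold in neither response and gave 1.02, 1.04 and 1.07.

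**Figure D2:**
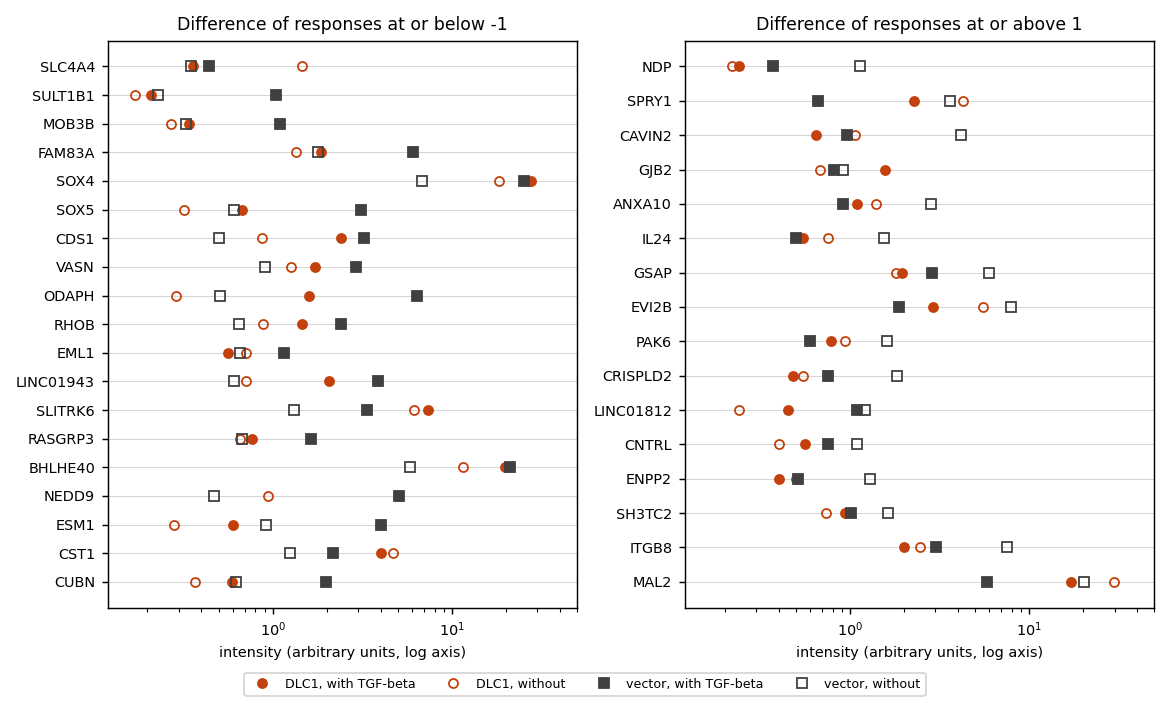
Intensities on a log axis, in arbitrary units, for the 19 genes with a difference of responses at or below -1 (left) and the 16 at or above 1 (right). Circles are arrays labelled DLC1 and squares vector arrays, filled with and open without TGF-beta. In FAM83A the vector array with TGF-beta lies alone to the right at 6.03, and in CAVIN2 the vector array without TGF-beta lies alone at 4.15.

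A difference of responses over 4 arrays can rest on 1 of them. The array farthest from the median of the other 3 was vector with TGF-beta for 12 of the 19 negative genes, vector without it for 6, and DLC1 without it for 1. For the 16 positive genes it was DLC1 with TGF-beta for 1, DLC1 without it for 1, vector with it for 3 and vector without it for 11. A vector array was thus the farthest in 32 of the 35 genes. The same share over all genes is not given here. The 35 were picked by the difference of responses and by a highest value on any 1 array, so nothing is read from their share. With 1 array per group, the array and the cells cannot be told apart in this count.

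Low values had the wider spread. Among 475 genes whose mean over the 4 arrays was under 1, the SD of the difference of responses was 0.42 and 3.37% passed 2-fold. The SD was 0.25 among 3933 genes at 1 to 4, 0.19 among 3800 genes at 4 to 16 and 0.15 among 2049 genes at 16 or more, where 0.407%, 0.0526% and 0.0488% passed. In the lowest of these bands 8 genes were positive and 8 negative. A gene in that band was kept only if at least 1 array reached 1, so the limit itself favours a wide spread there. SOX4 was the single gene past 2-fold in the highest band. Of the called genes, 14 of the 19 negative and 12 of the 16 positive read under 1 on at least 1 array. The same share over all genes is not given here, so nothing is read from these counts. The bacterial and phage control sets, added during preparation and labelling, ran from -0.14 to 0.06 over 18 hybridisation sets and from -0.20 to 0.28 over the 15 of 24 sets for spiked transcripts that reached 1. The 9 dimmer spike sets ran from -0.65 to 0.22, and several sets read each spiked transcript. The gap between the 3' and 5' sets of beta-actin, a sign of RNA quality, was 3.03 with and 3.11 without TGF-beta in the arrays labelled DLC1, against 2.83 with and 3.26 without it in the vector arrays, a difference of responses of 0.35. Its part in the gene values was not tested. Probe sets just inside the limit on the highest value, 306 sets reaching 1.0 to 1.04, had a median difference of responses of 0.0047 and a range of -1.87 to 0.83. The 382 sets just outside it, reaching 0.95 to 0.99, had a median of 0.0065 and a range of -1.07 to 1.29.

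**Figure D3:**
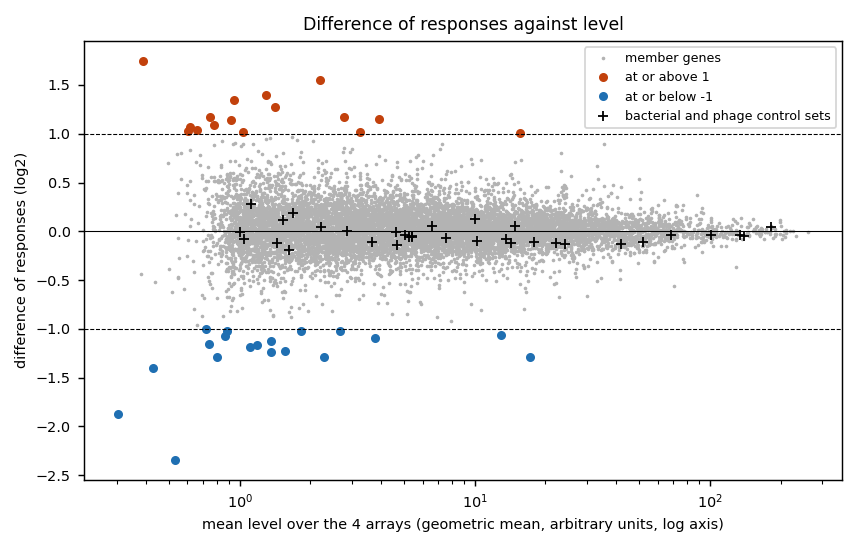
The difference of responses (log2, vertical axis) of each gene against its geometric mean intensity over the 4 arrays (log axis, arbitrary units). Coloured points are past 2-fold, and crosses are the bacterial and phage control sets that reached 1. The cloud narrows with level, with an SD of 0.42 for means under 1 and 0.15 for means of 16 or more. Genes with means under 1 are drawn only if at least 1 array reached 1, which favours a wide spread there.

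Different probe sets of a gene read the same RNA, so they check the probes and not the cultures. Over 4500 genes with several member sets, 7222 pairs of sets differed in the difference of responses by a median of 0.14, and by 0.50 at the 95th percentile. Of the 35 genes past 2-fold, 27 had 1 member set and 8 had several. In 4 of the 8 every set passed 2-fold the same way, in the other 4 every set had the same sign, and none had sets of opposite sign. The 3 sets of FAM83A gave -1.29, -1.60 and -1.70. The 3 of SLITRK6 gave -1.09, -1.13 and -1.21, the 2 of NEDD9 gave -1.02 and -1.08, and the 2 of GSAP gave 1.17 and 1.04. The 4 sets of SOX4 ran from -1.67 to -0.92. Sets parted in size for CDS1, at -1.23, -0.49 and -0.14, for BHLHE40, at -1.06 and -0.20, and for SPRY1, at 1.55 and 0.22.

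Of the genes with at least 2 member sets, 12 had every set past 1.5-fold below and 5 above. TCF4, a basic helix-loop-helix factor known to repress epithelial genes, had 7 member sets from -1.38 to -0.72. Its brightest set read 4.04 with and 2.89 without TGF-beta in the arrays labelled DLC1, against 12.4 with and 4.95 without it in the vector arrays. The vector array with TGF-beta was the high one. The others below were the cholesterol exporter gene ABCA1, the adhesion receptor gene ADGRF5, BMP2, IGFBP3, MYADM, the proteoglycan gene SDC1 and VGLL3, a cofactor of TEAD transcription factors, beside FAM83A, NEDD9, SLITRK6 and SOX4. VGLL3 read 5.43 with and 2.14 without TGF-beta in the arrays labelled DLC1, against 9.10 with and 2.15 without it in the vector arrays. Here the 2 arrays without TGF-beta were level and those with it parted, with -0.74 and -0.80 in its 2 sets. Those above were the matricellular gene CCN3, CDC42EP3, an effector of the GTPase CDC42, the Wnt receptor gene FZD7, TGFBR3 and GSAP.

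**Figure D4:**
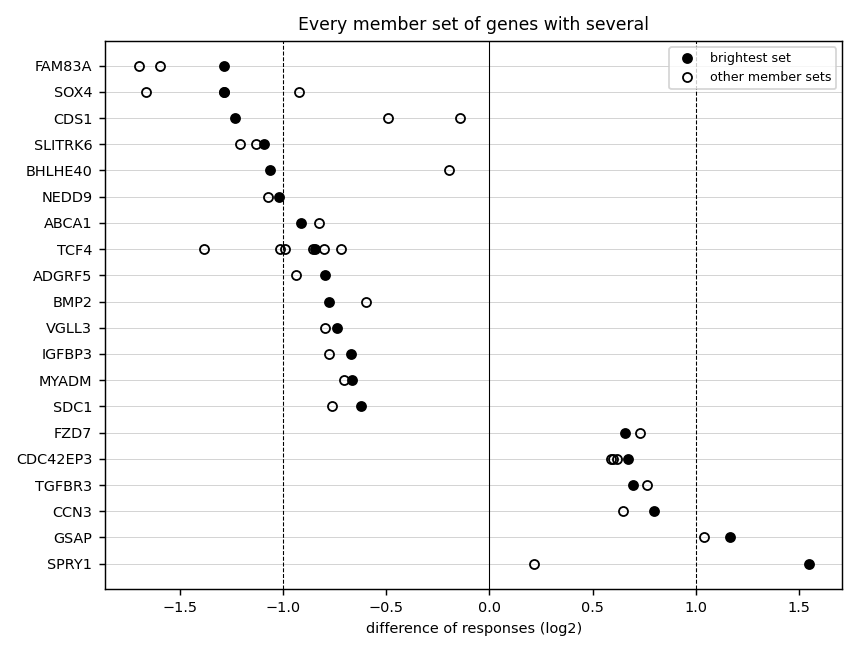
The difference of responses (log2, horizontal axis) in every member probe set of the genes that passed 2-fold with several sets, or whose every set passed 1.5-fold. Filled points are the set with the highest mean and open points the other sets. The 7 sets of TCF4 all lie between -1.38 and -0.72, while those of SPRY1 lie at 0.22 and 1.55.

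The TGF-beta pathway itself was followed by role. Among 14 ligands and antagonists the median difference of responses was -0.16, with none past 2-fold, 1 past 1.5-fold above and 1 below, against a median of 0.02 over all genes, of which 5595 lay above 0 and 4658 below. BMP2 and BMP4, ligands of the BMP branch, went opposite ways. BMP2 read 1.46 with and 0.86 without TGF-beta in the arrays labelled DLC1, against 4.19 with and 1.44 without it in the vector arrays, a difference of -0.78. BMP4 read 7.03 with and 7.98 without TGF-beta in the arrays labelled DLC1, against 4.86 with and 10.3 without it in the vector arrays, a difference of 0.90. In both the vector pair was the farther apart. The activin antagonist gene FSTL3 and the latent TGF-beta binding gene LTBP1 gave -0.51 and -0.46, TGFB2 gave -0.34 and TGFB1 -0.05.

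Of 14 receptors and SMADs, 7 lay above 0 and 7 below, and TGFBR3, the co-receptor betaglycan, was the 1 past 1.5-fold. It read 4.57 with and 7.53 without TGF-beta in the arrays labelled DLC1, against 4.43 with and 11.8 without it in the vector arrays. In this set the backgrounds were level with TGF-beta, and the difference was 0.69. The signalling receptors TGFBR1 and TGFBR2 gave 0.37 and 0.16, though the other member set of TGFBR1 gave -0.13, and SMAD3 gave 0.34.

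Among 19 feedback regulators and direct targets, 8 were at least 2-fold higher under TGF-beta in the arrays labelled DLC1 and 9 in the vector arrays, with medians of 0.69 and 1.0. The median difference of responses was -0.02, 9 members lay above 0 and 10 below, and NEDD9 was the 1 past 2-fold. PMEPA1, a feedback inhibitor that binds SMADs, read 81.0 with and 6.63 without TGF-beta in the arrays labelled DLC1, against 89.8 with and 8.19 without it in the vector arrays. Both pairs were far apart to a like extent, with a difference of responses of 0.16. SMAD7, the inhibitory SMAD, and SKIL, a SMAD corepressor, gave -0.20 and -0.24. CCN2, the connective tissue growth factor gene and a target long followed in bone metastasis, read 104 with and 52.8 without TGF-beta in the arrays labelled DLC1, against 149 with and 74.6 without it in the vector arrays, a difference of -0.02. The pro-osteolytic cytokine gene IL11 gave -0.09 and the chemokine receptor gene CXCR4 -0.03, though other sets gave 0.08 for IL11 and -0.28 and -0.30 for CXCR4.

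Among 10 genes with high average responses, the difference of responses ran from -0.56 for the adhesion gene CNTN1 to 0.47 for the cadherin gene CDH19. The 10 leave out called genes whose responses were also large in both backgrounds. Those were ODAPH, at 2.46 in the arrays labelled DLC1 and 3.65 in the vector arrays, and NEDD9, at 2.41 and 3.44. Collagen IV gene COL4A1 gave 0.23, collagen I gene COL1A1 -0.51, collagen VI gene COL6A3 -0.26, the metalloprotease gene ADAM19 0.02, the kinase anchor gene AKAP12 0.17 and the ephrin receptor gene EPHA4 -0.06. None of the 10 passed 1.5-fold in its brightest set, from which nothing is read since called genes are left out. Other member sets parted from the brightest one. CNTN1 gave -1.86 in its other set and CDH19 -0.54. The 2 other sets of AKAP12 gave -1.48 and -0.36, and the 3 of EPHA4 ran from -0.68 to -0.23. The other sets gave 0.51 for COL4A1, -0.23 for COL1A1 and -0.16 and -0.14 for PMEPA1.

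Matrix and adhesion genes differed gene by gene. Of 14 collagens, 8 were at least 2-fold higher with TGF-beta in each background, with medians of 1.04 in the arrays labelled DLC1 and 1.22 in the vector arrays. Their median difference of responses was -0.18, with 9 below 0 and 5 above. COL18A1, the collagen from which endostatin is cut, read 1.05 with and 0.97 without TGF-beta in the arrays labelled DLC1, against 1.14 with and 0.60 without it in the vector arrays, a difference of -0.81. COL7A1, of anchoring fibrils, gave -0.74 in its brighter set and -0.18 in the other. Among 12 matrix glycoproteins the median was 0.00, with 6 on either side. THBS1, thrombospondin-1, an activator of latent TGF-beta, read 35.0 with and 15.2 without TGF-beta in the arrays labelled DLC1, against 60.2 with and 48.7 without it in the vector arrays. The array labelled DLC1 without TGF-beta was the low one, and the difference was 0.90. This rests on 1 set, since the other 5 member sets of THBS1 ran from -0.30 to 0.16. CCN3 gave 0.80 and the fibronectin gene FN1 -0.49. Among 12 integrins the median was -0.11, and ITGB8 at 1.02 and the fibronectin receptor chain ITGA5 at -0.73 were the extremes.

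Actin genes were followed because DLC1 is known to act on the actin cytoskeleton. Of 22 actin cytoskeleton and SRF-MRTF targets, 16 lay below 0 and 5 above, with a median of -0.09 and none past 2-fold. MYL9, a myosin light chain, read 0.84 with and 0.85 without TGF-beta in the arrays labelled DLC1, against 1.20 with and 0.76 without it in the vector arrays, a difference of -0.68. CALD1 and TAGLN2, actin-binding proteins, gave -0.54 and -0.51. Of 16 YAP and TAZ targets, which respond to actin tension, 11 lay above 0 and 5 below, with a median of 0.02, or -0.06 with arrays centred on housekeeping genes, and none past 1.5-fold. STARD13, a GTPase-activating relative of DLC1, gave -0.06.

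In the other signalling lists, Sprouty gene SPRY1 was the 1 of 18 EGF receptor and ERK feedback genes past 2-fold, with a list median of 0.10 and 15 members above 0. NDP was the 1 of 15 Wnt genes, with a median of 0.11. With arrays centred on housekeeping genes the 2 medians were 0.01 and 0.03. The Wnt receptors FZD1 and FZD7 gave 0.85 and 0.66, and the ligand WNT5B gave -0.65. Among 22 NF-kappaB and chemokine genes the median was -0.08 with 18 below 0, and PTX3, a secreted pattern recognition protein, stood at the upper end with 0.56. PTX3 read 11.0 with and 26.7 without TGF-beta in the arrays labelled DLC1, against 20.4 with and 73.3 without it in the vector arrays. In each background the array without TGF-beta was the higher. Among 19 AP-1, EGR and KLF factors BHLHE40 was the 1 past 2-fold, FOSL1 gave 0.58 and JUNB -0.54.

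Of 18 bone metastasis and osteoclast-acting genes none passed 2-fold, and the median was -0.06. CSF1, the macrophage growth factor that osteoclast precursors need, read 7.28 with and 10.8 without TGF-beta in the arrays labelled DLC1, against 2.32 with and 5.92 without it in the vector arrays, a difference of 0.78. Both arrays labelled DLC1 were above both vector arrays. SPP1, the osteopontin gene, read 0.14 with and 0.17 without TGF-beta in the arrays labelled DLC1, against 2.43 with and 1.96 without it in the vector arrays, a difference of -0.59 that rests on the 2 dim values. Among 9 EMT factors and mesenchymal genes the median was -0.01, and TCF4 at -0.84 was the 1 past 1.5-fold. Of 13 epithelial genes the tight junction gene CLDN1 was the 1 past 1.5-fold, at 0.93.

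In the remaining lists reported here SLC4A4, 1 of 6 ion transport genes, was the 1 member past 2-fold. Of 14 cholesterol and lipid synthesis genes 13 lay below 0, with a median of -0.15 and a range of -0.35 to 0.04. The median was -0.19 over 19 genes of endoplasmic reticulum and amino acid stress, with the chaperone genes HSP90B1 and HSPA5 at -0.53 and -0.37 and the cystine transporter gene SLC7A11 at 0.54. HSPA5 read 208 with and 207 without TGF-beta in the arrays labelled DLC1, against 92.1 with and 71.2 without it in the vector arrays, so both arrays labelled DLC1 were above both vector arrays. The medians were 0.04 over 34 cell cycle genes, 0.00 over 20 interferon response genes, -0.06 over 19 hypoxia and glycolysis genes, 0.05 over 8 heat shock genes, 0.14 over 7 Notch genes and -0.04 over 11 housekeeping genes. With each array centred on the median level of the housekeeping genes, the cell cycle and heat shock medians turned to -0.05 and -0.03.

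**Figure D5:**
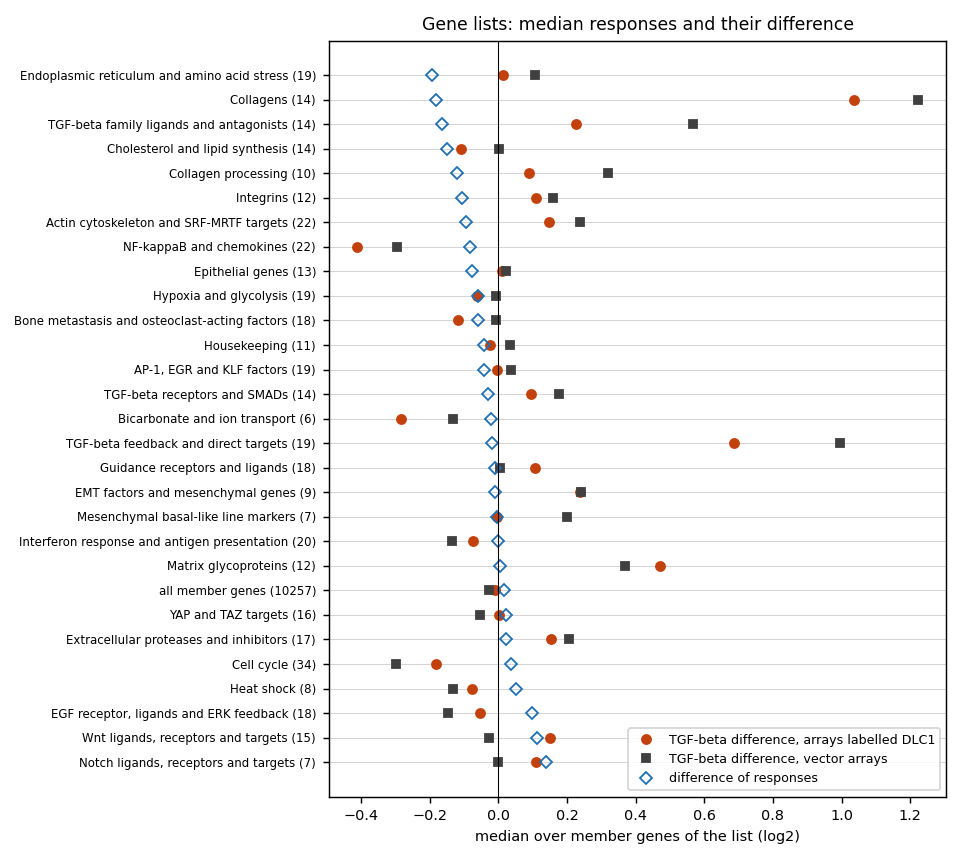
Medians over the member genes of each list (log2): circles are the difference under TGF-beta in the arrays labelled DLC1, squares that in the vector arrays and diamonds the difference of responses, with the number of member genes in brackets. Collagens and TGF-beta feedback genes lie far to the right in both backgrounds, at 1.04 and 1.22 and at 0.69 and 1.0, while the list medians of the difference of responses run from -0.19 to 0.14 over the lists with 6 or more members that are drawn.

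Set side by side over the genes that responded, the responses were more often smaller in the arrays labelled DLC1. Genes were first taken by the average of the 2 responses, which weighs both backgrounds equally. Such a pick still favours the background whose responses spread more widely, so it is not neutral. Of 107 genes whose average was at least 2-fold upward, 79 had the smaller response in the arrays labelled DLC1. The medians were 1.20 there and 1.55 in the vector arrays. Of 26 genes with an average at least 2-fold downward, 23 had the smaller response in the arrays labelled DLC1. The medians were -0.89 there and -1.46 in the vector arrays. For genes picked on the vector response, which favours that background, the medians were 1.03 in the arrays labelled DLC1 and 1.35 in the vector arrays upward (148 genes), and -0.64 and -1.23 downward (72 genes). For genes picked on the response in the arrays labelled DLC1, they were 1.30 there and 1.47 in the vector arrays upward (97 genes), and -1.12 and -1.10 downward (12 genes). Over all genes the response was the smaller in the arrays labelled DLC1 for 6249 of 10257. Each background has a single pair of arrays, so a difference between the pairs and a difference between the cells cannot be told apart.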

How the data were processed

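Total RNA of 4 cultures of SCP2 cells was measured on 1 Affymetrix array per group (DLC1 or vector, with or without TGF-beta), grouped by the labels. The authors deposited 1 linear intensity per probe set and array, with 2 decimals, from 0.05 to 266 and with array medians of 0.38 to 0.39. RMA, which equalises the arrays, is named without a version per the submitters' processing notes, and the unit of the scale is unknown, so levels are arbitrary. The number of arrays limits the precision. Here log2 was taken and the difference of responses formed (Python 3.11.15 with pandas 2.3.3 and numpy 2.4.6). Sets with exactly 1 symbol (41097 of 42898 listed) and a highest value of at least 1 were kept. Identifiers of 17468 of 17479 member sets matched RefSeq, and no symbol changed. A gene was called at 2-fold, without a test, and the calculation was tested on simulated data. The text names DLC1, the 15 lowest and 15 highest differences, genes whose several sets passed together, up to 5 of each pattern, up to 6 of each of 37 lists by size, and genes tied to the study's purpose. The other called genes are named so that each is accounted for, and list members with smaller values to show their role. Members and lists were chosen with earlier results of these data known. Alternatives were other limits on the highest value, a pseudocount of 0.25, quantile normalization and cyclic loess (limma 3.58.1, R 4.3.3), 2 centrings, means over sets and other thresholds. Some items are not reported here.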

Additional observations from a re-analysis of the deposited data

Results flagged for a closer look

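In 9 of the 35 genes past 2-fold, TGF-beta went with a higher value in one background and a lower value in the other. With 1 array per group the difference was not tested. The share of all genes with such opposite signs is not given here, so nothing is read from this count. The difference of responses was -2.34 for SLC4A4, -1.16 for EML1 and -1.02 for CST1, which were lower under TGF-beta in the arrays labelled DLC1 and higher with it in the vector arrays. It was 1.75 for NDP, 1.35 for GJB2, 1.17 for GSAP, 1.07 for LINC01812, 1.04 for CNTRL and 1.02 for SH3TC2, which were higher under TGF-beta in the arrays labelled DLC1 and lower with it in the vector arrays. In each of the 9 at least 1 of the 2 responses was under 1.5-fold.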

How the results depend on the processing

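The count of positive genes, 16 with the limit of 1 on the highest value, was 7 with a limit of 2 and 32 with no limit. It was 10 with arrays centred on housekeeping genes, 7 with a pseudocount of 0.25, 129 at 1.5-fold and 1 at 3-fold. The count of negative genes, 19, was 10 with the pseudocount, 39 when each member set was counted on its own, 90 at 1.5-fold and 2 at 3-fold. Under the remaining alternatives the counts ran from 13 to 24 and from 13 to 28. None of the 35 called genes changed sign. Past 2-fold under all 7 alternatives run per gene were 14 genes, namely the negative SLC4A4, SULT1B1, MOB3B, FAM83A, SOX4, SOX5, VASN and ODAPH and the positive NDP, CAVIN2, GJB2, ANXA10, GSAP and EVI2B. These 7 did not include a change of the limit on the highest value, on which dim genes depend. For MOB3B a set that was brighter on average, but reached only 0.97, gave -0.51. The pseudocount, which shrinks ratios of dim values, left 17 of 35. Under the scalings and the pseudocount, 63 to 78 of 78 to 108 genes with an average at least 2-fold upward had the smaller response in the arrays labelled DLC1, and 14 to 48 of 17 to 58 downward. Centring on housekeeping genes moved the median of all genes by -0.09 and that of the housekeeping genes to -0.13, and the other settings moved the first by at most 0.02. Medians of lists near 0 turned sign under some settings, as for matrix glycoproteins, at -0.08 after that centring, and EMT genes, at 0.01 after centring on all members. Leaving out an array leaves no difference of responses. No paired analysis was possible because each group has 1 array. Signal near the last decimal limits the dim genes: allowing for rounding, 29 of 35 stayed past 2-fold.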

Other observations

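Outside the named genes, 891 probe sets that list several symbols reached 1 on at least 1 array, and 0 of them passed 2-fold above and 3 below. Of 1633 such sets with no listed gene, 2 passed above and 7 below. The osteoblast factor gene RUNX2, the 1 of 3 bone cell markers on the array to reach 1, read 3.75 with and 3.47 without TGF-beta in the arrays labelled DLC1, against 3.90 with and 5.97 without it in the vector arrays, a difference of responses of 0.73. Of 7 Notch genes 6 lay above 0, with a list median of 0.05 once arrays were centred on housekeeping genes. The ligand gene JAG1 gave 0.24 in its brightest set and -0.09 to 0.31 in the other 3, and the target gene HES1 gave 0.26 and -0.08 in its 2 sets. Among cell cycle genes the mitotic motor gene KIF20A gave 0.39 and the cyclin gene CCNE1 -0.51. ANGPTL4, a lipoprotein lipase inhibitor known to respond to both hypoxia and TGF-beta, gave -0.61.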
